A study of Mus musculus with 8 samples.

Results

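Cholesterol and fatty acid synthesis was followed through 36 genes in left ventricles of mice labelled as lacking the adhesion receptor ADGRF5, also called GPR116, in cardiomyocytes. The genes were chosen by function, from sterol synthesis, its SREBP control, sterol transport and efflux, and fatty acid synthesis and modification. Each was found by its symbol among the 55487 gene identifiers counted in every library, and all 36 were among the 14695 genes abundant enough to be tested. The animals were C57BL/6 mice of 12 weeks. The 4 control libraries are titled NLC and labelled wild-type, and the 4 libraries titled CM-ADGRF5-KO are labelled as a myocyte-specific loss of GPR116, with 2 males (libraries 1 and 2) and 2 females (libraries 3 and 4) in each group. Neither the Cre driver nor whether the controls carried a Cre or floxed allele is known from the sources used here.

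Cells make cholesterol from acetyl-CoA through the mevalonate pathway and then through squalene, and they make fatty acids from the same precursor through malonyl-CoA. SREBP transcription factors switch on both pathways. They are held in the endoplasmic reticulum by SCAP and INSIG proteins while sterols are plentiful, SREBP-2 driving mainly sterol genes and SREBP-1c mainly fatty acid genes. LXR receptors, activated by oxysterols, raise the efflux transporters and SREBP-1c. The heart takes up most of its lipid and burns fatty acids, so that its malonyl-CoA, made by acetyl-CoA carboxylases, is known mainly as a brake on mitochondrial fatty acid entry, while Fasn and Scd1 are classic genes of fat cells and liver.

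Promoter stretches of 4 members that the results turn on are shown because SREBP is known to act there together with the CCAAT-binding factor NF-Y. They come from RefSeq on GRCm38.p6, each being the 250 bases before the gene's start on the coding strand. Capitals mark CCAAT or its complement ATTGG and, in Hmgcs1 only, the sterol regulatory element form TCACNCCAC. Hmgcs1 lies at chr13:119690101-119690350 on the plus strand, Mvd at chr8:122443423-122443672, Sc5d at chr9:42264301-42264550 and Fasn at chr11:120824548-120824797, these last on the minus strand.
Hmgcs1: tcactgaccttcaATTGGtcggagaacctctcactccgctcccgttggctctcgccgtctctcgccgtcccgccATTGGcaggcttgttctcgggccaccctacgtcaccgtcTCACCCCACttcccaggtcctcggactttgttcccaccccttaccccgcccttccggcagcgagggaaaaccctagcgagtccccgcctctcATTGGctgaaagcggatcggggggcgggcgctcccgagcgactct
Mvd: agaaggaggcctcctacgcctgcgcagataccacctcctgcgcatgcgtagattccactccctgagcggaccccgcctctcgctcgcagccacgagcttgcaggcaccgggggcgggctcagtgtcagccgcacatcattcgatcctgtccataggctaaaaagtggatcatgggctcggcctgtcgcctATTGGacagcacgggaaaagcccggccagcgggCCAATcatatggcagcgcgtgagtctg
Sc5d: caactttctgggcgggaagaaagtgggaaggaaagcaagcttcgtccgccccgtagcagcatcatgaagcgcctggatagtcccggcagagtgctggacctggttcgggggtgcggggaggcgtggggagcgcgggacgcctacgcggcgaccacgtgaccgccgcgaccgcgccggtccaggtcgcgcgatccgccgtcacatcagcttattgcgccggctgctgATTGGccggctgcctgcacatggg
Fasn: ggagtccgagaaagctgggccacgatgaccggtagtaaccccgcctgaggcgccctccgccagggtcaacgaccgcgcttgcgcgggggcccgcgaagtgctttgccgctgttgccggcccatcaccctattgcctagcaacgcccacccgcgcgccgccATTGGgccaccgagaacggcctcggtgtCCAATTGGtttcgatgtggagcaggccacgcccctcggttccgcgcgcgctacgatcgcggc
Hmgcs1 and Fasn hold 3 CCAAT boxes each in this stretch, Mvd holds 2 and Sc5d 1. Both strands were searched in windows that also take in 50 bases after the start, and 28 of the 36 genes had such a window. CCAAT was found for 22 of these 28 genes and in 63.9% of their 36 windows, against 37.4% of 32851 windows over all genes. All 8 matched genes of the squalene to cholesterol steps held it, as did 5 of 6 of the mevalonate steps, 4 of 5 SREBP regulators and 3 of 4 fatty acid synthesis genes, against 1 of 3 desaturases and elongases and 1 of 2 sterol transport genes. The Sp1 box GGGCGG was in 72.2% of the members' windows and in 35.7% of all, TCACNCCAC in 2.78% against 1.24%, and the LXR-type direct repeat 4 in 0% against 0.0152%. These matches describe the letters and were tested for nothing else.

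The libraries held 25.33 to 39.62 M gene reads, of which the 36 genes took 0.0914% to 0.116% and mitochondrially encoded genes 17.4% to 21.9%. Values are CPM, gene read counts scaled to a common depth with TMM factors, and levels are compared between genes only per kilobase of exon (RPKM). The cardiomyocyte markers Myh6, Myl2, Myl3, Tnnt2, Tnni3, Actc1 and Ttn summed to 64040 to 77710 CPM in controls and 69040 to 81590 CPM in KO. Adgrf5 itself was not lower in KO beyond the spread between animals, at 232.7 ± 17.4 CPM in controls and 224.2 ± 15.7 in KO (SD, n = 4 each; log2 fold change -0.05, SE 0.0754, edgeR adjusted p = 0.782). Endothelial cells also express it, so its level in whole tissue does not check the KO labels, on which every direction given here rests. Control library 4, a female, stood apart by atrial, Schwann cell and some fat cell transcripts, described beside the lipogenic genes. Results that rest on it are given with and without it. No label says that the animals are littermates, and p-values measure only the spread between these 8 samples.

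None of the 36 genes passed the test of KO against control at an adjusted p of 0.05 in edgeR, where 0.102% of the 14695 genes did, 0.0476% higher and 0.0544% lower. DESeq2 and limma voom also called 0 of the 36. At an unadjusted p under 0.05 there was 1 member higher in KO, Mvd, and 2 lower, Stard4 and Sc5d. That is 2.78% and 5.56% of the members beside 5.77% and 6.18% of all genes tested, so the share of members with a small p was below or near the background in each direction. All 4 control and all 4 KO libraries were separated, without overlap, for 1 higher member (Mvd) and 1 lower (Stard4), where 3.22% and 3.03% of all genes tested were. The fold change was positive for 16 members and negative for 20, beside 49% and 51% of all genes. The members' median log2 fold change was -0.02, and that of all genes -0.01. In whole ventricle, fewer cells of a type and less RNA per cell cannot be told apart.

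**Figure D1:**
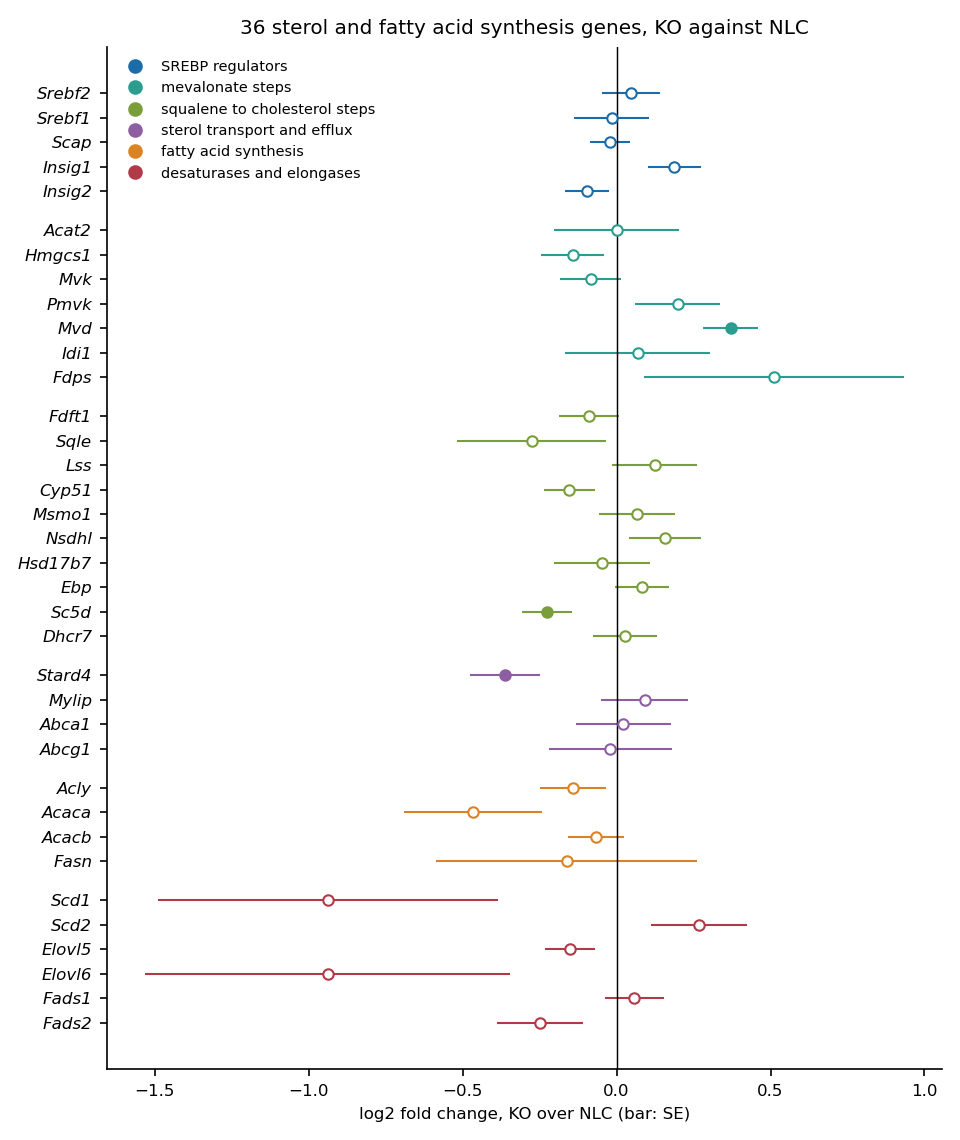
Log2 fold change of each of the 36 genes, KO over control, from the edgeR fit with sex as a covariate. Bars are standard errors worked back from the test. Colours give the role, and filled points the 3 genes with an unadjusted p under 0.05 (Mvd, Sc5d, Stard4), none of which passed after adjustment. The widest bars belong to Elovl6, Scd1, Fasn and Fdps.

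The SREBP regulators did not separate the groups. Srebf2, which encodes SREBP-2, stood at 31.4, 34.2, 32.9 and 39.1 CPM in control libraries 1 to 4 and at 39.4, 32.5, 36.9 and 33.0 CPM in KO libraries 1 to 4. The ranges overlapped almost fully, and the log2 fold change was 0.05 (SE 0.0940). Srebf1, the gene of SREBP-1a and SREBP-1c, had 45.7, 40.0, 34.0 and 52.8 CPM in controls, against 42.8, 43.8, 39.9 and 44.2 CPM in KO (log2 fold change -0.02, SE 0.121). Every KO value of Srebf1 lay inside the control range, whose extremes were the 2 female controls. Scap, the sterol-sensing escort of SREBP, ran from 38.2 to 47.2 CPM in controls (43.2, 47.2, 38.2, 38.7) and from 38.5 to 43.6 CPM in KO (43.6, 41.8, 38.5, 40.4), a log2 fold change of -0.02 (SE 0.0658).

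The INSIG proteins retain the SCAP-SREBP complex, and Insig1 is itself an SREBP target whereas Insig2 is not driven by SREBP in the same way. Insig1 measured 16.8, 17.5, 14.4 and 12.3 CPM in controls, against 17.7, 19.4, 16.8 and 15.3 CPM in KO, so that within each sex both KO libraries lay above both controls, while the groups overlapped across the sexes. Its log2 fold change of 0.19 (SE 0.0847) had an unadjusted p of 0.0502 and an edgeR adjusted p of 0.418. Insig2 measured 46.0, 47.6, 46.5 and 50.6 CPM in controls, against 40.7, 43.9, 49.96 and 43.9 CPM in KO, with 3 KO libraries below all controls and KO library 3 within their range (log2 fold change -0.10, SE 0.0706). Per kilobase, Insig2 was the more abundant in all 8 libraries, by 2.01 to 3.66 times. Srebf1 exceeded Srebf2 per kilobase in all 8 libraries as well, by 1.32 to 1.85 times.

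Of the 7 genes of the mevalonate steps, 5 had a positive and 2 a negative fold change. Mvd (minus strand of chromosome 8, 122433601 to 122443422 on GRCm38) encodes mevalonate diphosphate decarboxylase, which makes isopentenyl diphosphate. It stood at 8.40, 8.48, 7.29 and 7.23 CPM in controls and at 11.8, 10.7, 8.64 and 9.51 CPM in KO. All 4 KO libraries lay above all 4 controls, as they did for 3.22% of all genes tested. The lowest KO animal (library 3) was only just above the highest control (library 2), and within each group the males were above the females. The means were 7.85 ± 0.685 and 10.2 ± 1.40 CPM (SD, n = 4 each), a log2 fold change of 0.37 (SE 0.0894) with an unadjusted p of 0.00191 and an edgeR adjusted p of 0.209.

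Hmgcs1 (chromosome 13, 119690379 to 119708260), the cytosolic synthase that makes HMG-CoA and the most abundant gene of these steps per kilobase at 6.48 ± 0.827 RPKM (SD over 8 libraries), measured 30.8, 32.0, 29.2 and 32.3 CPM in controls. In KO it measured 24.3, 23.8, 31.4 and 34.3 CPM. The 2 KO males lay below every other library, and the 2 KO females lay among or above the controls, so that over both sexes the log2 fold change was -0.14 (SE 0.102). Hmgcs1 overlaps the antisense transcript Gm48342 over 557 exonic bases, and the sources used here do not say whether reads were counted by strand.

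The other mevalonate genes spanned log2 fold changes from -0.08 for Mvk, mevalonate kinase, to 0.51 for Fdps, farnesyl diphosphate synthase. Pmvk, phosphomevalonate kinase, which acts just before Mvd, was at 9.65 ± 1.89 CPM in controls and 11.1 ± 0.859 in KO (log2 fold change 0.20, SE 0.138). Acat2, the cytosolic acetoacetyl-CoA thiolase that opens the pathway, was at 3.69 ± 0.676 CPM in controls and 3.71 ± 0.630 in KO. Idi1, the isomerase of isopentenyl diphosphate, was at 1.26 ± 0.293 and 1.35 ± 0.438 CPM. Fdps was the least abundant member at 0.102 RPKM, with as few as 5 reads in a library, and it shares 1124 exonic bases with Gm43738 on the same strand, so reads that fall there may not have been assigned to it.

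The 10 genes from squalene to cholesterol were split evenly, 5 with a positive and 5 with a negative fold change. Sc5d (chromosome 9, 42251595 to 42264256), the lathosterol desaturase near the end of the pathway, stood at 18.7, 18.5, 17.4 and 18.9 CPM in controls and at 14.5, 15.8, 15.2 and 17.5 CPM in KO. The groups overlapped only through control library 3 (17.44 CPM) and KO library 4 (17.51 CPM), and the other 3 KO libraries lay below all controls. The log2 fold change was -0.23 (SE 0.0817), with an unadjusted p of 0.0196 and an edgeR adjusted p of 0.350. Sc5d lay in the opposite direction from Mvd, though both belong to the same pathway.

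Sqle, squalene epoxidase, a rate-controlling step of the pathway, was scarce at 0.219 RPKM. It was found at 1.39, 1.47, 1.11 and 1.35 CPM in controls and at 0.820, 1.11, 1.51 and 0.977 CPM in KO (log2 fold change -0.28, SE 0.242). KO library 3 held the highest value of all and KO library 1 the lowest. Fdft1, squalene synthase, stood at 43.8, 45.9, 37.6 and 30.1 CPM in controls, against 40.2, 39.2, 30.2 and 37.5 CPM in KO, and at 9.003 RPKM it was the most abundant of the 10. It overlaps exons of Ctsb, a lysosomal protease gene on the opposite strand, over 774 bases.

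The remaining 8 genes, Fdft1 among them, had log2 fold changes between -0.15 and 0.16. Cyp51, the lanosterol demethylase, was at 11.2 ± 0.980 CPM in controls and 10.02 ± 0.465 in KO (log2 fold change -0.15, SE 0.0831), and Nsdhl, a decarboxylating sterol dehydrogenase that acts after it, at 5.68 ± 0.324 and 6.34 ± 0.834 CPM (0.16, SE 0.117). Lss, the synthase that closes lanosterol, was at 4.34 and 4.72 CPM, and Msmo1, the methylsterol oxidase, at 5.66 and 5.97 CPM. Hsd17b7, a sterol ketoreductase, had means of 15.8 and 15.2 CPM and Ebp, the sterol isomerase, of 13.2 and 14.03 CPM. Dhcr7, the reductase that finishes cholesterol, had means of 7.73 and 7.87 CPM with a log2 fold change of 0.03 (SE 0.104).

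**Figure D2:**
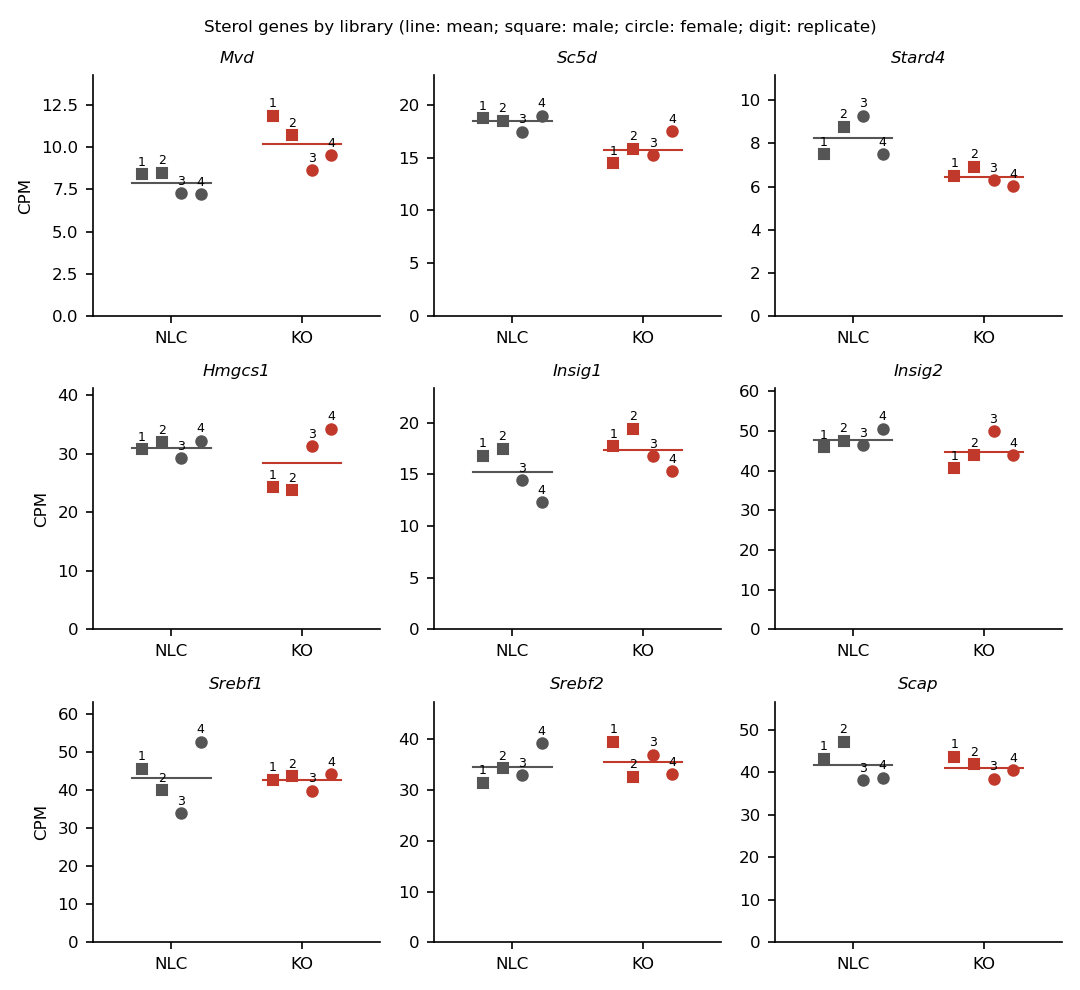
CPM of 9 sterol pathway genes in every library, controls (NLC, grey) beside KO (red), with males as squares, females as circles, the replicate number above each point and the group mean as a line. Mvd and Stard4 separate the groups, Sc5d nearly does, and Hmgcs1 is low in the 2 KO males only.

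Of the 4 genes of sterol transport and efflux, Stard4 was the only member of all 36 with every KO library below every control. Of all genes tested, 3.03% were separated in this direction. Stard4 encodes a soluble carrier that moves cholesterol between membranes. Its values were 7.50, 8.77, 9.28 and 7.50 CPM in controls, against 6.51, 6.92, 6.28 and 6.01 CPM in KO, with means of 8.26 ± 0.904 and 6.43 ± 0.382 CPM. The log2 fold change was -0.36 (SE 0.113), with an unadjusted p of 0.00919 and an edgeR adjusted p of 0.309. All 6 endothelial markers also had a lower mean in KO, where 51% of all genes tested had a negative fold change. At an unadjusted p under 0.05 were 4 of them, beside 6.18% of all genes, and 0 passed after adjustment. The 6 markers summed to 776.5 to 945.5 CPM in controls and 717.9 to 796.9 CPM in KO. Their part in the Stard4 value was not tested.

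The LXR-driven efflux transporters showed no such separation. Abca1, which loads cholesterol onto apolipoprotein A-I, stood at 23.8, 29.8, 22.6 and 26.5 CPM in controls, against 23.5, 32.2, 18.9 and 29.9 CPM in KO, the KO values reaching beyond the controls at both ends (log2 fold change 0.02, SE 0.154). Abcg1, which loads cholesterol onto HDL, stood at 5.58, 7.30, 9.28 and 6.19 CPM in controls, against 7.62, 8.16, 4.85 and 7.44 CPM in KO, again with KO library 3 lowest of all (log2 fold change -0.02, SE 0.199). Mylip, the LXR-induced ubiquitin ligase of lipoprotein receptors, was at 17.7 ± 2.13 CPM in controls and 18.9 ± 3.88 in KO (0.09, SE 0.142).

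Fasn, Scd1, Elovl6, Acaca and Acly varied more among the controls than among the KO libraries. Fasn (chromosome 11, 120805846 to 120824547), the fatty acid synthase, stood at 31.7, 27.9, 22.4 and 124.3 CPM in controls and at 41.7, 39.0, 43.8 and 43.8 CPM in KO. Control library 4 was thus far above all others, while the other 3 controls lay below all 4 KO libraries. Over all 8 libraries this gave a log2 fold change of -0.16 (SE 0.425) with an adjusted p of 0.885 in edgeR. With control library 4 left out it was 0.64 (SE 0.117, unadjusted p = 0.00026), with an edgeR adjusted p of 0.0964, so the direction turned and the test was still not passed.

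Acaca and Acacb encode the acetyl-CoA carboxylases, Acaca the cytosolic enzyme that feeds Fasn and Acacb the mitochondrial one that feeds the brake on fatty acid entry. Acaca was at 9.37, 10.5, 7.79 and 17.9 CPM in controls, against 8.44, 8.89, 7.69 and 7.78 CPM in KO, a log2 fold change of -0.47 (SE 0.223) that became -0.13 without control library 4. Acacb, the most abundant member at 37.3 ± 4.34 RPKM, was at 388.3, 433.9, 328.2 and 324.5 CPM in controls, against 369.3, 352.1, 302.5 and 375.5 CPM in KO (log2 fold change -0.07, SE 0.0900). Acacb was not high in control library 4, where it had its lowest control value. Per kilobase Acacb exceeded Acaca 69.7 to 85.6 times in 7 libraries and 32.1 times in control library 4. Acly, the citrate lyase that supplies acetyl-CoA to both pathways, was at 42.7, 43.2, 44.2 and 63.7 CPM in controls, against 41.1, 43.5, 45.5 and 44.5 CPM in KO, again with control library 4 alone outside a narrow band. Its log2 fold change was -0.14 (SE 0.108) and -0.00253 (SE 0.0741) without control library 4.

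Among the desaturases and elongases, Scd1 (chromosome 19, 44394455 to 44407879), the stearoyl-CoA desaturase of fat and liver, had the most uneven values. It stood at 11.1, 11.7, 7.39 and 65.2 CPM in controls and at 7.67, 9.48, 19.9 and 7.48 CPM in KO. Control library 4 was the highest and KO library 3 the next, and the other 6 lay between 7.39 and 11.7 CPM with the groups mixed. Its log2 fold change was -0.94 (SE 0.551) over all libraries, with an edgeR adjusted p of 0.491, and 0.08 (SE 0.346) without control library 4. Scd2, its neighbour on chromosome 19 and the desaturase known from brain and other tissues, was at 15.97, 19.05, 14 and 24.3 CPM in controls, against 17.7, 20.7, 24.8 and 25.7 CPM in KO (log2 fold change 0.27, SE 0.155). Scd2 exceeded Scd1 per kilobase by 1.12 to 3.08 times in 7 libraries, but in control library 4 the ratio was 0.333.

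Elovl6, which lengthens palmitate, was found at 0.487, 1.18, 0.742 and 4.25 CPM in controls and at 0.688, 1.04, 0.913 and 0.488 CPM in KO, with as few as 13 reads in a library. Its log2 fold change was -0.94 (SE 0.594) with control library 4 and -0.00344 without it. Elovl5, the elongase of polyunsaturated chains, was at 22 ± 1.89 CPM in controls and 19.8 ± 1.69 in KO (log2 fold change -0.15, SE 0.0801). The Δ5 and Δ6 desaturases Fads1 and Fads2 were at 28.1 and 29.1 CPM and at 8.78 and 7.40 CPM in controls and KO, with log2 fold changes of 0.06 (SE 0.0969) and -0.25 (SE 0.140), and Fads2 was at -0.10 (SE 0.124) without control library 4.

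**Figure D3:**
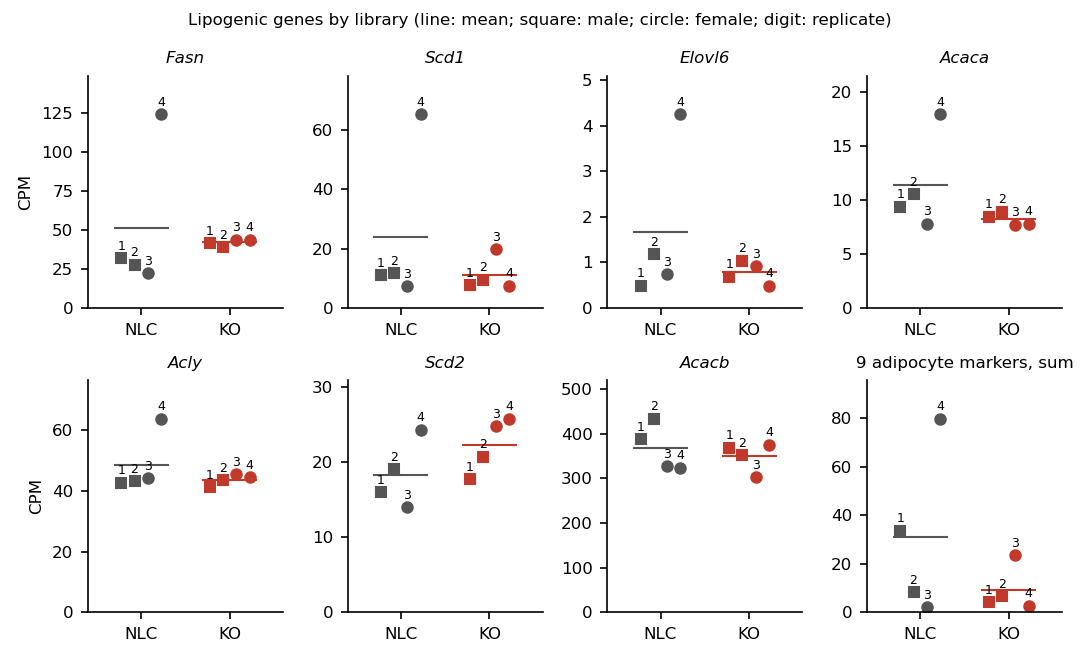
CPM of 7 lipogenic genes and the summed CPM of 9 adipocyte markers in every library, controls (NLC, grey) beside KO (red), with males as squares, females as circles, the replicate number at each point and the group mean as a line. The 9 markers were chosen from 13 after the values were seen. Control library 4 is the highest point for Fasn, Scd1, Elovl6, Acaca and Acly and for the marker sum, but not for Acacb.

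Of 13 adipocyte markers, 8 were highest in control library 4, where Fasn, Scd1, Elovl6, Acaca and Acly were also highest. Fabp4 (414.3 CPM) and Pparg (8.61 CPM) instead had their lowest control values there. The whole list summed to 684.2 to 790.4 CPM in controls, with 763.8 CPM in control library 4, and to 674.2 to 811.6 CPM in KO. Fabp4, Plin4, Cidea and Pparg, which other cells of the heart also express, made up nearly all of it. The other 9 (Adipoq, Plin1, Cidec, Cfd, Lep, Retn, Car3, Adrb3 and Ucp1, a subset chosen after the values were seen) summed to 33.7, 8.32, 2.29 and 79.8 CPM in controls, against 4.34, 6.57, 23.6 and 2.78 CPM in KO. Ucp1, the uncoupling protein of brown fat, was at 18.8 CPM in control library 4 and at 0 to 0.15 CPM in the other 7, and Lep was at 0 in 4 libraries. All 6 atrial markers were also highest in control library 4, the list summing to 388.5 to 6151 CPM in controls and 369.5 to 1492 CPM in KO. Of 6 Schwann cell markers, 5 were highest there. That list summed to 50.2, 57.8, 61.9 and 81.4 CPM in control libraries 1 to 4 and to 58.05 to 70.9 CPM in KO. Erythroid markers summed to 199.9, 143.5, 233.4 and 59.65 CPM in controls, against 313.5, 284.6, 58.84 and 175 CPM in KO. KO library 3, which had the next highest Scd1, also had the highest sum of the 9 fat markers and of the atrial list among KO libraries, while control library 1 had the second highest sum of the 9 and no high Fasn or Scd1. The part of fat, atrial, Schwann or blood cell content in these results was not tested.

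Control library 4 held the highest value for 11 of the 36 genes (30.6%), where it did so for 14.9% of all genes tested. These were 3 of 4 fatty acid synthesis genes and 4 of 6 desaturases and elongases, against 2 of 5 SREBP regulators, 2 of 10 squalene to cholesterol genes and none of the 7 mevalonate or 4 transport genes. The median coefficient of variation of the fatty acid synthesis genes was 30.2% among controls and 6.17% among KO, beside 11.5% and 11.4% over all genes. With that library left out, 4 members were higher and 1 lower in KO at an unadjusted p under 0.05, beside 5.45% and 5.50% of the 14848 genes then tested. The 4 higher genes were Fasn, Mvd (log2 fold change 0.38, SE 0.109), Pmvk (0.34, SE 0.126) and Scd2 (0.41, SE 0.152), and the lower gene was Stard4 (-0.41, SE 0.126). No member passed the edgeR adjusted threshold in that fit either. Among sterol genes with a larger p, Srebf1 went to 0.13 (SE 0.0953), Srebf2 to 0.12 (SE 0.0924) and Fdft1 to -0.17 (SE 0.0897). With control library 3 left out instead, 2 members were higher and 8 lower in KO at an unadjusted p under 0.05. Beside them were 1289 and 1379 of the 14849 genes then tested, and 0 members passed after adjustment. The members' median log2 fold change was -0.0722 without control library 3 and 0.0541 without control library 4.

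**Figure D4:**
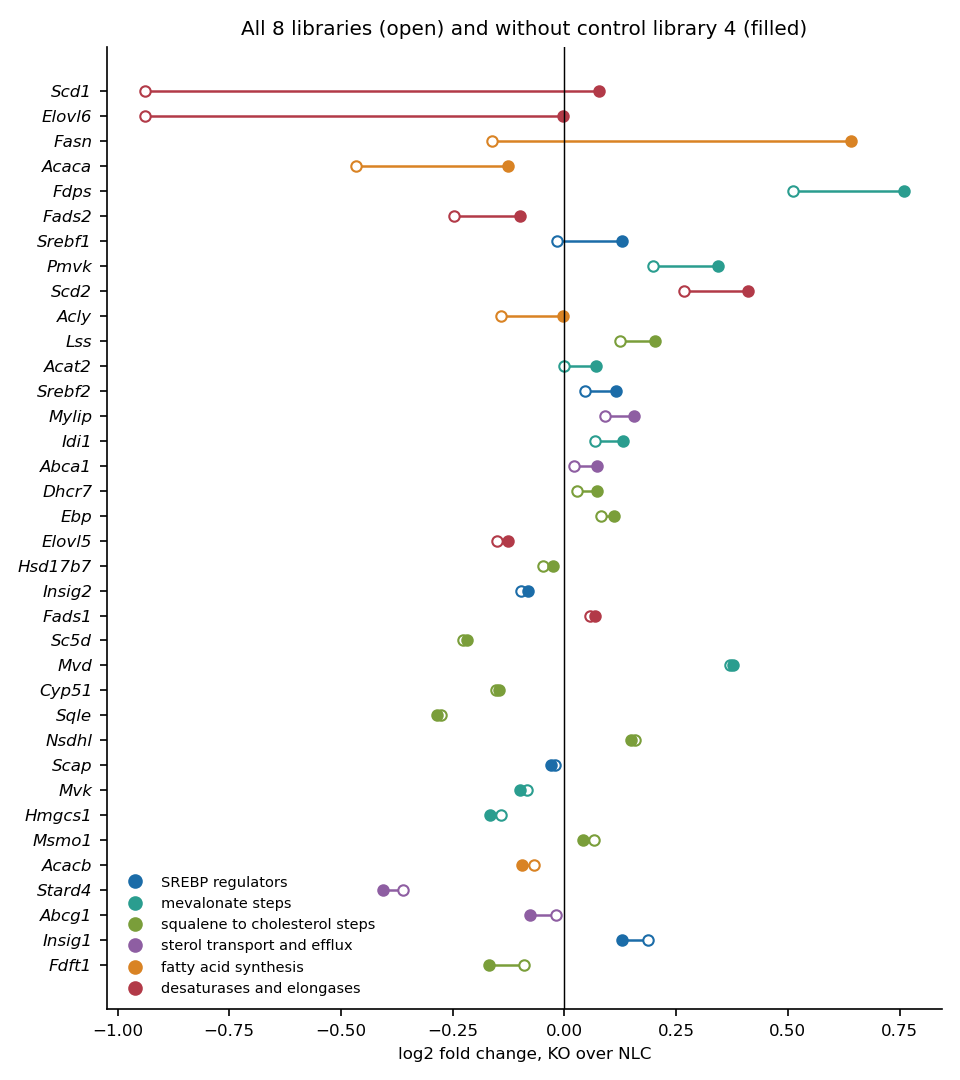
Log2 fold change of each gene, KO over control, from all 8 libraries (open) and with control library 4 left out (filled), ordered by how far the value moved. Scd1 and Elovl6 moved from -0.94 to near 0 and Fasn crossed from -0.16 to 0.64, while Mvd, Sc5d and Cyp51 hardly moved.

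The low-count filter also bore on 3 of these genes. Without it, edgeR tested 27953 genes and called 621 of them. The 3 members among these were Acaca (-0.46, adjusted p = 0.0139), Scd1 (-0.94, adjusted p = 8.3e-15) and Elovl6 (-0.93, adjusted p = 0.031), all lower in KO. Their fold changes were like those above, with standard errors of 0.124, 0.109 and 0.271. Over the same libraries the standard errors with the filter were 0.223, 0.551 and 0.594 for Acaca, Scd1 and Elovl6 in that order. These fold changes rested on control library 4. With the filter and without that library, they were -0.13 for Acaca, 0.08 for Scd1 and -0.00344 for Elovl6.

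The 2 sexes were compared in a fit with a mean for each sex and genotype. In males 1 member was higher and 2 lower in KO at an unadjusted p under 0.05, beside 9.01% and 8.45% of all genes, and in females 1 was higher and 3 lower, beside 2.14% and 2.99%. No member passed the adjusted threshold in either sex, where 0.0408% of all genes passed in males and 0% in females. Mvd was the higher gene in both, at 0.42 (SE 0.128) in males and 0.32 (SE 0.130) in females on the log2 scale. The lower genes were Hmgcs1 (-0.38, SE 0.100) and Sc5d (-0.30, SE 0.114) in males, and Acaca (-0.73, SE 0.307), Elovl6 (-1.82, SE 0.746) and Stard4 (-0.45, SE 0.162) in females. Without control library 4 the female values were -0.01 (SE 0.173) for Acaca, -0.07 (SE 0.616) for Elovl6, -0.59 (SE 0.183) for Stard4 and 0.32 (SE 0.174) for Mvd. In that fit, control library 3 is the lone female control. There 27 members had a positive and 9 a negative fold change in females, against 17 and 19 over all libraries. The members' median log2 fold change was 0.147, beside 0.0042 over all genes. Srebf1 was at 0.30 (SE 0.131), Pmvk at 0.49 (SE 0.194), Scd2 at 0.85 (SE 0.164), Fasn at 0.97 (SE 0.131) and Abcg1 at -0.60 (SE 0.256). Scd1 went from -1.40 (SE 0.764) to 0.89 (SE 0.435). Control library 3 held the lowest value for 8 of the 36 genes, and for 1584 of the 14695 genes tested. With control library 3 left out instead, 13 members had a positive and 23 a negative fold change in females. The members' median was then -0.109, beside -0.00111 over all genes, so its sign changed with the control that was kept. By the library numbers in the sample descriptions, both KO males precede both control males, so that order and genotype cannot be told apart in males.

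Hmgcs1 was the only member with an unadjusted p under 0.05 in the test of the difference between the sexes over all 8 libraries. The KO effect on it was -0.38 in males and 0.09 (SE 0.100) in females, a difference of -0.48 (SE 0.142) with an unadjusted p of 0.008 and an edgeR adjusted p of 0.648, and -0.55 (SE 0.156) without control library 4. In that test 0% of genes passed after adjustment, and 4.29% and 3.16% had an unadjusted p under 0.05 with a positive or negative difference. Without control library 4, where control library 3 is the lone female control, the difference was positive for 11 members and negative for 25. The members' median difference was -0.175, beside 0.00824 over all genes. Abcg1 was at 0.89 (SE 0.334), Hsd17b7 at -0.72 (SE 0.285), Fasn at -0.53 (SE 0.164), Scd1 at -1.31 (SE 0.553) and Scd2 at -0.72 (SE 0.207). The female value of Fasn took its sign from the control that was kept. The edgeR fit gave a log2 fold change in females of -0.74 (SE 0.555) over all libraries, of 0.97 (SE 0.131) without control library 4 and of -1.50 (SE 0.116) without control library 3. Each of these last values compares 2 KO females with a lone control, which is assumed to vary like the other groups. Without control library 3, the lone female control is library 4, in which Fasn, Scd1 and Acaca were highest. There Acaca was at -1.21 (SE 0.154) and Scd1 at -2.25 (SE 0.368) in females. The difference between the sexes for Fasn was 1.94 (SE 0.155) in that setting. Without control library 3, the difference was positive for 20 members and negative for 16. The members' median difference was then 0.0807, beside 0.0112 over all genes.

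**Figure D5:**
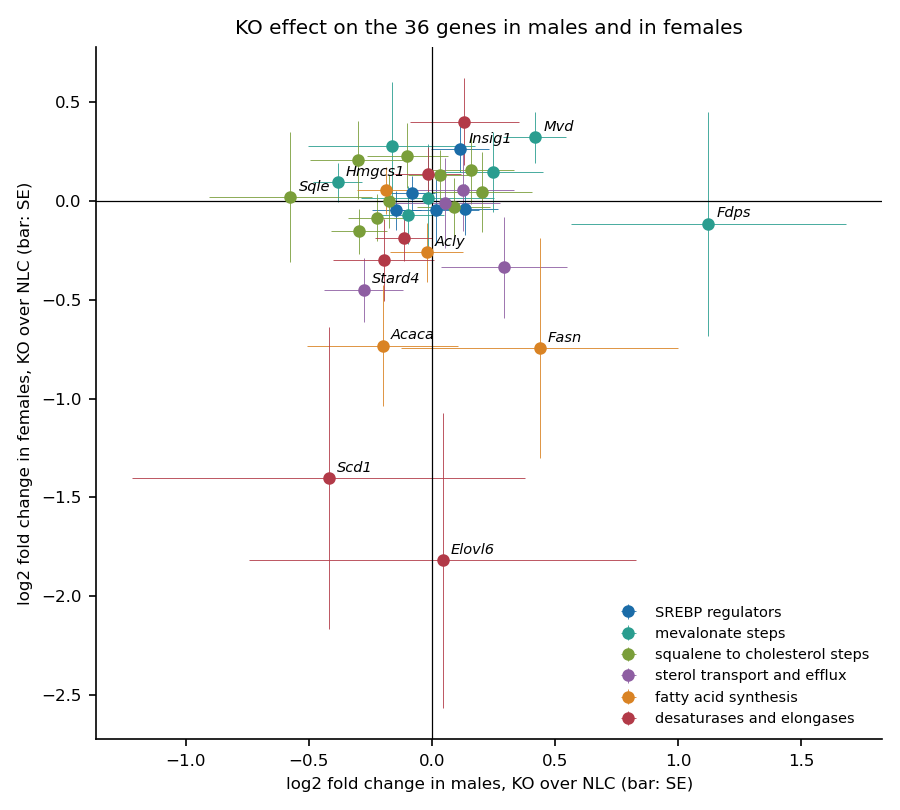
Log2 fold change of each gene, KO over control, in females against males, with standard errors as bars and the role as colour. Mvd and Stard4 have the same sign in both sexes, Hmgcs1 is below 0 in males only, and Elovl6, Scd1, Fasn and Acaca are lowest in females, where the control group includes library 4.

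Between males and females of both genotypes together, 5 members were higher in males at an unadjusted p under 0.05 and none lower, beside 6.79% and 6.04% of all genes. None passed after adjustment, where 0.299% of all genes did. These were Insig1 (log2 male over female 0.28, SE 0.0847), Fdft1 (0.32, SE 0.0963), Mvd (0.27, SE 0.0893), Scap (0.17, SE 0.0658) and Acacb (0.21, SE 0.0901). The count depended on the scaling and on single libraries. With library size scaling alone, 2 members were higher and 8 lower in males, beside 504 and 1919 of all genes, and without control library 3 there were 3 and 6. Over all the settings tried, 2 to 6 were higher and 0 to 8 lower. In controls alone, both males were above both females for all 5 of these genes. The genes were picked for a male excess over these same libraries, so that order is no separate evidence. In KO the same order held for Insig1, Fdft1, Mvd and Scap. It did not hold for Acacb, with 369.3 and 352.1 CPM in KO males and 375.5 CPM in the female KO library 4. Without control library 4, Insig1 (0.23), Fdft1 (0.24) and Mvd (0.28, each an edgeR log2 value) were still at an unadjusted p under 0.05, Scap and Acacb were not, and Fads2 (0.28, SE 0.125) was.

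Other genes of these pathways, from 3 lists of function, did not pass after adjustment in KO against control either. Of 22 other sterol genes, which include the enzymes and receptors of uptake and esterification, 0 were higher and 2 lower at an unadjusted p under 0.05, where 5.77% and 6.18% of all genes were. These were Rnf139, a sterol-linked ubiquitin ligase (-0.25, SE 0.0849), and Acat1, the mitochondrial thiolase of ketone and isoleucine breakdown (-0.18, SE 0.0710). Of 11 other LXR pathway genes, 9 were tested and 1 was lower, the nuclear receptor corepressor Ncor1, at 108.9 ± 13.1 CPM in controls and 89.1 ± 5.61 in KO (-0.29, SE 0.0911, edgeR adjusted p = 0.317). Of 25 other lipogenesis genes, 20 were tested, with 2 higher and 1 lower. Dgat1, which makes triglyceride, was at 20.5 ± 1.40 CPM in controls and 24.4 ± 2.30 in KO (0.25, SE 0.0832), Scd4, the heart-expressed desaturase beside Scd1, was at 14.2 ± 6.07 and 23.8 ± 5.53 CPM (0.74, SE 0.287), and Lpin1, a phosphatidate phosphatase, was lower (-0.26, SE 0.101). Without control library 4, Scd4 was at 1.16 (SE 0.205, edgeR adjusted p = 0.0865). The median log2 fold changes of the 3 lists were -0.06, 0.08 and 0.02, beside -0.01 over all genes. Thrsp, a lipogenic cofactor known from liver and fat, had a log2 fold change of 0.48 (SE 0.0805, edgeR adjusted p = 0.0676) without control library 4, the smallest p of the 3 lists in that fit.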

How the data were processed

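Values start from the counts of reads per gene that the authors deposited, and STAR, HTSeq and GRCm38 are named for them per the submitters' processing notes, with versions and strand setting not given in the sources used here. Per the labels' protocols, stranded mRNA libraries were made from left ventricle RNA. Of all tallied reads 16.8% to 20.3% were multiply mapped, 3.07% to 4.08% outside genes and 1.26% to 1.38% ambiguous, and these stayed out of library sizes and tests. Reads shared between near-identical copies are thus mostly uncounted.

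GENCODE M21 gave symbols for 55227 of 55487 identifiers. Counts were filtered with filterByExpr by genotype and TMM-scaled, and KO was compared with control by the edgeR 4.0.16 quasi-likelihood test in R 4.3.3, with sex as a covariate and Benjamini-Hochberg adjustment over all 14695 genes. Sex contrasts came from a fit with a mean per sex and genotype. Each SE of an edgeR fold change was worked back from the test. It is the size of the log2 fold change over the square root of F, which is least exact near a fold change of 0. Sequences came from RefSeq. In simulated data, the fit of KO against control recovered 59.4% of 1.5-fold and 90.4% of 2-fold changes. In males it recovered 17.6% of 1.5-fold changes, and for the difference between the sexes 4.48%. False calls made up 6.87%, 7.35% and 9.52% of the calls in these 3 contrasts. The contrast within females was not simulated. Alternatives were DESeq2 1.42.0, limma 3.58.1 voom, other scalings and filters, no sex term, a replicate block and libraries left out; leaving out control library 4 together with KO library 3 was added after seeing the data. A count of 0 allows up to 0.0793 to 0.122 CPM (3 counts, counting error only).

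The members and all lists were chosen with earlier results of these data known. The naming rule gave values per library for members with an unadjusted p under 0.05 or groups that do not overlap and for 12 regulators and enzymes, ranges or means for the rest, and up to 4 genes for each of 3 further lists. Values per library of Acaca, Acly, Acacb and Elovl6, and Thrsp, were added after the values were seen. Some pathway genes are counted but not named.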

Additional observations from a re-analysis of the deposited data

Results flagged for a closer look

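In 5 of the 72 sets of 4 values (36 genes in 2 groups), a library stood apart from the other 3 by Dixon's criterion, which chance alone meets in about 1 set of 20. Control library 4 was the far value for 3 of them, with Fasn at 124.3 CPM, Scd1 at 65.22 CPM and Acly at 63.66 CPM. KO library 3 stood apart for Scd1 at 19.87 CPM, and its 9-marker fat sum of 23.56 CPM was the highest among KO libraries. KO library 1 stood apart for Cyp51 at 10.71 CPM, the other KO libraries lying between 9.73 and 9.84 CPM and the controls between 9.99 and 12.0 CPM.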

How the results depend on the processing

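The signs of 21 of the 36 fold changes turned under none of the 20 alternatives. Among these were Mvd (0.33 to 0.41 with a library left out), Stard4 (-0.43 to -0.28), Sc5d (-0.28 to -0.19) and Hmgcs1 (-0.22 to -0.09). The other 15 turned under at least 1, and none of the 15 passed the adjusted threshold in the filtered edgeR fit of all libraries. Of these 15, Scd1 and Elovl6 were called without the filter. With a library left out, the range was -0.0309 to 0.115 for Srebf2, -0.125 to 0.128 for Srebf1, -0.0472 to 0.0144 for Scap, -0.0974 to 0.118 for Acat2, -0.078 to 0.217 for Idi1, -0.0312 to 0.119 for Msmo1, -0.171 to 0.0894 for Hsd17b7, -0.0425 to 0.0734 for Dhcr7, -0.0567 to 0.225 for Mylip, -0.115 to 0.146 for Abca1, -0.16 to 0.172 for Abcg1, -0.413 to 0.642 for Fasn, -1.27 to 0.0778 for Scd1 and -0.0316 to 0.122 for Fads1. Under limma voom, Srebf1 was 0.00133, Acat2 -0.0113, Abca1 -0.00253 and Fasn 0.0742. Acat2 was -0.0143 with library size scaling alone and -7.72e-06 with the filter of 1 CPM in 4 libraries, under which Fdps and Elovl6 were not tested. Leaving out control libraries 3 and 4 removes both female controls, so with sex as a covariate that fit compares KO males with control males only. There Srebf1 was 0.0125, Acat2 -0.0228, Idi1 -0.164, Msmo1 -0.103, Abcg1 0.291, Fasn 0.435, Elovl6 0.0403 and Fads1 -0.0191. Elovl6 turned under no other alternative. Without control library 4 and KO library 3, Srebf1 was 0.134, Msmo1 -0.0357, Abcg1 0.0855, Fasn 0.612 and Fads1 -0.00775. The cause of these turns was not tested.

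Over all genes, 15 were called, against 150 by DESeq2, 621 without the low-count filter, 6 without the sex term, 44 without control libraries 3 and 4 (a comparison of males only), and 0 to 50 with a library left out (0 without control library 1, control library 2, KO library 2 or KO library 3, 4 without KO library 1 or KO library 4, 50 without control library 3, and 20 without control library 4). In males 6 were called, against 314 by DESeq2, 1007 without the filter and 0 to 59 with a library left out. In females 0 were called, with 753 at an unadjusted p under 0.05, against 17 by DESeq2, 277 without the filter and 0 to 81 with a library left out. The difference between the sexes gave 0, with 1096 at an unadjusted p under 0.05, against 15 by DESeq2, 243 without the filter and 0 to 8 with a library left out. Male against female gave 44, against 216, 742 and 16 to 176.

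Members were called only without the filter (3 in KO against control, 1 in males, 4 in females, 2 for the difference between the sexes and 3 between males and females), or with a library left out (0 to 3 in females, 0 to 1 for the difference between the sexes). With library size scaling alone, 682 genes were higher and 1120 lower at an unadjusted p under 0.05, against 848 and 908 with TMM. The replicate block called 0 genes, with 1717 at an unadjusted p under 0.05, and gave Srebf1 0.000735 and Fasn 0.0963. No label says that replicate numbers pair the animals. Deviations of same-numbered libraries from their group means correlated at 0.246, 0.0937, -0.208 and 0.0873. From the means of each sex and group they correlated at 0.0371 for numbers 1 and 2 and at -0.311 for numbers 3 and 4. These values cannot decide whether animals were paired. Depth limits Fdps, Elovl6, Sqle and Idi1, which had as few as 5 to 26 reads in a library.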
